A study of Mus musculus with 60 samples.

Results

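2,4-Diaminotoluene (DAT) is an aromatic diamine, an intermediate in the manufacture of polyurethane precursors and a liver carcinogen in rodents. The arrays described here are the 3 replicates of Balb/c 3T3 cells given 50 µM DAT for 24 h, chosen by their titles, and they were compared with the 3 DMSO controls of the same time whose titles carry no E2 mark. They are 6 of the 60 arrays of a study that exposed this mouse embryo fibroblast line to 4 carcinogens at 2 times. The line is contact inhibited and is used in assays of chemical cell transformation. Cells were treated at partial confluence, and the controls were kept in 0.75% DMSO. The other chemicals at 24 h were benzo[a]pyrene (BaP, 0.5 µM), 3-methylcholanthrene (MCA, 2 µM) and 2-acetylaminofluorene (AAF, 25 µM), each with 3 arrays and each at its own concentration. DAT was also given at 50 µM for 120 h, with 3 DMSO controls of that time, and at 700 µM for 24 h in a separate set of 30 arrays at concentrations of mild toxicity (IC20), whose 24 h controls are marked E2. The protocols speak of a single cell line and do not say whether replicates were separate cultures. The p-values thus rest on how far these arrays scatter, and part of that scatter may be technical.

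The aryl hydrocarbon (Ah) receptor is a ligand-activated transcription factor that waits in the cytosol with Hsp90 and other chaperones. Flat aromatic ligands release it to the nucleus, where it pairs with Arnt and binds short elements upstream of its target genes. Its best known targets are the cytochromes P450 Cyp1a1 and Cyp1b1, which oxidise polycyclic hydrocarbons and aromatic amines, a few further enzymes of detoxication, and its own repressors Ahrr and Tiparp. The comparison asks how narrow the response of the fibroblasts to an aromatic amine was after a single day, with the receptor's targets as the reference.

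The response was narrow. Of 11957 genes tested, 26 passed an adjusted p of 0.05 (0.217%; limma with Benjamini-Hochberg adjustment), 13 higher (0.109%) and 13 lower (0.109%) after DAT. Cyp1a1 was the only gene of all those tested to differ by 2-fold or more, and 4 of the 26 had a fitted difference of at least 1.5-fold, among them Chil1, whose controls were below the array median. The log2 difference was under 0.25 in size for 95.62% of genes, and the median half-width of the 95% interval was 0.186. That interval is not adjusted for the number of genes, and the smallest difference called was 0.302. With 3 arrays a group, differences well above 0.186 could thus go uncalled. At an unadjusted p under 0.05 there were 1252 genes, 684 higher (5.72%) and 568 lower (4.75%). With the replicate number as a block, 311 genes passed (2.60%), 161 higher (1.35%) and 150 lower (1.25%). These included all of the 26, and again 1 gene differed by 2-fold or more. Leaving out 1 array gave 5 genes without DAT replicate 2 or without DAT replicate 3, 15 without DAT replicate 1, and 26, 13 and 28 without control replicates 1, 2 and 3. RNA was taken from whole cultures, so fewer responding cells and less RNA per cell cannot be told apart.

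**Figure D1:**
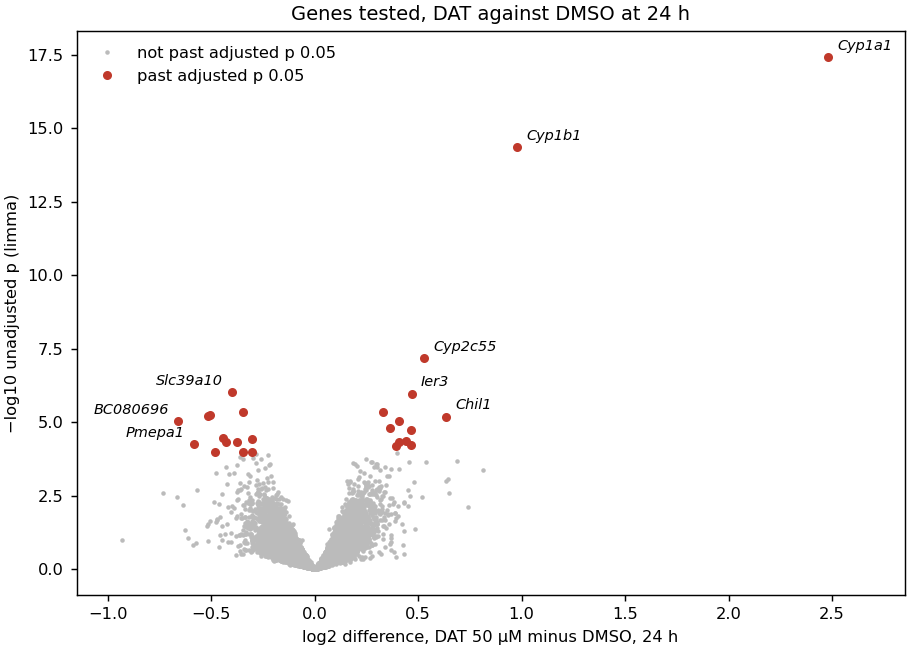
Each point is a gene, with the log2 difference between 50 µM DAT and DMSO at 24 h on the horizontal axis and the unadjusted p of limma as its negative log10 on the vertical axis; the 26 genes past an adjusted p of 0.05 are red. Cyp1a1 at 2.48 and Cyp1b1 at 0.98 lie far from the other genes.

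The receptor's target genes led the list. Cyp1a1 stood at 8.05, 8.16 and 7.95 (log2 of intensity + 16, normalised) on the 3 DAT arrays and at 5.78, 5.31 and 5.62 on the 3 controls. The groups did not overlap, and the gap between them was many times the spread within either. The log2 difference was 2.48 ± 0.116 (SE; 95% interval 2.24 to 2.72; adjusted p = 4.55e-14, limma), and the deposited intensities themselves averaged 253 ± 13.2 (SD, n = 3) after DAT and 31.6 ± 7.50 (SD, n = 3) in the controls. All 3 controls lay below the array median of 5.90, which serves here as the floor for a measured level, so that the gene was bright enough to test only through treated arrays. Against that floor in place of the controls, Cyp1a1 was at least 4.46-fold higher after DAT.

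Cyp1b1, the P450 of extrahepatic tissues that fibroblasts express without treatment, stood at 11.31, 11.30 and 11.31 on the DAT arrays and at 10.29, 10.20 and 10.50 on the controls. It rose by 0.98 ± 0.0610 (SE; adjusted p = 2.69e-11, limma), or 1.97-fold, and the 3 DAT arrays lay much closer together than the controls did. Its other probe set gave a log2 difference of 1.08.

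Other members of the receptor's battery of targets moved less, and their calls depended on the fit. Nqo1, a quinone reductase, stood at 9.17, 9.17 and 9.18 after DAT and at 8.46, 8.58 and 8.86 in the controls, so that the groups did not overlap. Its log2 difference of 0.54 ± 0.127 (SE) did not pass (adjusted p = 0.0723, limma) and passed with the replicate block (adjusted p = 0.00317). Tiparp, an ADP-ribosyltransferase that represses the receptor, stood at 9.53, 9.47 and 9.43 after DAT against 9.26, 9.29 and 9.30 in the controls. Its difference of 0.19 ± 0.0531 (SE) likewise passed only with the block (adjusted p = 0.160 without it and 0.0246 with it, limma). Aldh3a1, an aldehyde dehydrogenase, was dim, at 5.99, 5.39 and 5.82 after DAT and 5.27, 5.01 and 5.02 in the controls, with all controls and 2 of the 3 DAT arrays below the array median. Its difference of 0.63 ± 0.171 (SE) passed in neither fit (adjusted p = 0.155, and 0.0505 with the block, limma). The DAT arrays were above all controls for each of these 3 genes, as they were for 8.62% of all genes tested.

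In all, 11 battery genes were listed, 7 had a probe set of their own and 5 were bright enough to test. Of these 5, 2 were higher and 0 lower, or 4 higher with the block. Of all genes, 0.109% were higher, or 1.35% with the block. Cyp1a1 and Aldh3a1 are among the 5 only through treated arrays in which they are bright, so these counts describe the genes measured and no median over them is given. Cyp1a2, the P450 that N-hydroxylates aromatic amines in liver, and Ahrr, the receptor's repressor, were below the array median in both groups. Cyp1a2 lay between 4.34 and 4.79 after DAT and between 4.34 and 4.56 in the controls, and Ahrr between 4.46 and 4.63 and between 4.49 and 4.76, so neither was tested. Ugt1a6a, Ugt1a6b, Ugt1a7c and Gsta1, which conjugate oxidised products, had no probe set assigned to them alone.

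The sequences just upstream of the start sites of Cyp1a1, Cyp1b1 and Tiparp are printed because these battery promoters hold the core letters GCGTG of the element that the receptor and Arnt bind. They are the 250 bases before the start in the RefSeq promoter table (GRCm38.p6), written 5′ to 3′ on the strand of the gene, with the match in capitals. Capitals reading CACGC mark the same letters on the opposite strand.
Cyp1a1, chr9:57697363-57697612, plus strand: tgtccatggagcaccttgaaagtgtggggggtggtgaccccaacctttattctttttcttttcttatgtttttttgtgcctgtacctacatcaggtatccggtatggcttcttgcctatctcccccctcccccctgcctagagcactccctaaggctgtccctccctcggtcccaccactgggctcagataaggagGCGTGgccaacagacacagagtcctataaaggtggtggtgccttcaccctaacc
Cyp1b1, chr17:79715062-79715311, minus strand: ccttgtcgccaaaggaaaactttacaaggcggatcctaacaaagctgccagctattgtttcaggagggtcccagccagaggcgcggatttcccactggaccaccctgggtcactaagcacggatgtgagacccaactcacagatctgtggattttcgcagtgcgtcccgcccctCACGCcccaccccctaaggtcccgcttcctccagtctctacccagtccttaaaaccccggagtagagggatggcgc
Tiparp, chr3:65528197-65528446, plus strand: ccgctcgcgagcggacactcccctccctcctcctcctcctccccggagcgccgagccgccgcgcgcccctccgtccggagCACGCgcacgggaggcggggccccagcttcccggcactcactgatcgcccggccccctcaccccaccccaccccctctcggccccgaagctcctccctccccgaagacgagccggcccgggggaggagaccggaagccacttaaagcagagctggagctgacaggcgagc
The match begins 54 bases before the start of Cyp1a1, 76 before that of Cyp1b1 and 170 before that of Tiparp. GCGTG was the only motif searched, on both strands, and 28.2% of the 32851 promoter windows hold it. By gene, with any window of the gene counted, it is in 4782 of 9656 tested genes (49.5%), in 4 of the 12 risen genes with a window (33.3%) and in 4 of the 7 fallen genes with a window (57.1%). The windows of Nqo1, Chil1, Cyp2c55 and Ier3 hold no match, which says only that these letters are not in those 250 bases. No window was matched for Aldh3a1, for the risen gene Heph, or for the fallen genes BC080696, Gdpd5, Ncam1, Pmepa1, Reep3 and Skil.

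The receptor itself and its partners were measured on 11 probe sets of 15 genes listed. Ahr differed by -0.07 (adjusted p = 0.833, limma) and Arnt, its partner in the nucleus, by -0.07 (adjusted p = 0.919). Hsp90aa1, the cytosolic chaperone, differed by -0.01 (adjusted p = 0.986). Of these 11 genes, 0 were called in either direction by limma, 2 were lower at an unadjusted p under 0.05, and 1 was lower with the block, namely the coactivator Ncoa2 (-0.23, adjusted p = 0.00982 with the block and 0.275 without, limma). Their median was -0.07. Of all genes, 4.75% were lower at an unadjusted p under 0.05 and 1.25% were lower with the block.

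Among 10 tested genes linked to the receptor in other ways, 2 rose, or 4 with the block, where 0.109% of all genes rose, or 1.35% with it. This list was drawn up with earlier results of these arrays known, so its direction is not independent evidence. Chil1, a secreted chitinase-like protein, stood at 5.98, 5.98 and 6.06 after DAT and 5.42, 5.37 and 5.33 in the controls, a rise of 0.63 ± 0.113 (SE; adjusted p = 0.00776, limma). The controls lay below the array median of 5.90 and the DAT arrays just above it, so the size of this rise rests on values that were hardly measurable. Its controls at 120 h were also below that median, so Chil1 was tested only through treated arrays. The count of rises in this list therefore describes only the genes measured. Ier3, an early response gene that influences cell survival, stood at 9.55, 9.59 and 9.56 after DAT against 9.19, 9.06 and 9.04, a rise of 0.47 ± 0.0742 (SE; adjusted p = 0.00256, limma). Ptgs2, the inducible prostaglandin synthase, stood at 7.007, 6.999 and 6.853 against 6.582, 6.504 and 6.550. Its difference of 0.41 ± 0.0999 (SE) passed only with the block (adjusted p = 0.0843 without it and 0.0151 with it, limma). Nfe2l2, the transcription factor Nrf2, differed by 0.21 (adjusted p = 0.269, and 0.00521 with the block, limma).

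**Figure D2:**
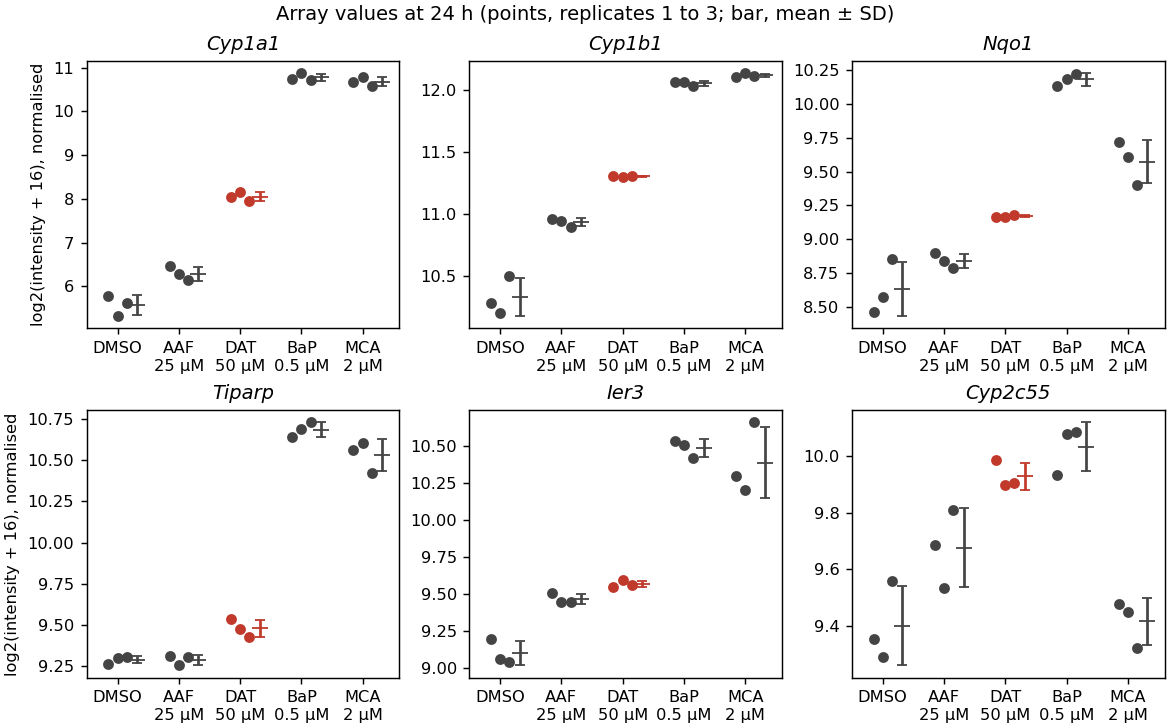
Values of 6 genes on the 3 arrays of each 24 h group, as log2 of intensity + 16 after normalisation, with the mean ± SD beside them; each panel has its own vertical scale, which does not start at 0. For Cyp1a1 the DAT arrays (red, 7.95 to 8.16) lie above DMSO and AAF and below BaP and MCA, while for Tiparp they lie close to DMSO.

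The other genes that rose did so by less than 1.5-fold. Cyp2c55, a P450 that oxidises arachidonic acid, stood at 9.99, 9.90 and 9.91 after DAT and at 9.35, 9.29 and 9.56 in the controls. It rose by 0.53 ± 0.0714 (SE; adjusted p = 0.000259, limma), and was among the 5 of the 26 genes called in all 6 leave-outs of a single array, with Cyp1a1, Cyp1b1, Ier3 and Slc39a10. Adh7, a retinol-oxidising alcohol dehydrogenase, stood at 9.05, 9.24 and 9.18 against 8.60, 8.87 and 8.77, a rise of 0.41. Heph, a copper-dependent ferroxidase, stood at 7.93, 8.13 and 7.98 against 7.55, 7.67 and 7.43, a rise of 0.47. Enpp3, a cell-surface nucleotide pyrophosphatase, rose by 0.46, Fbxo2, an F-box protein that recognises glycoproteins, by 0.41, and Limd2, a LIM-domain protein, by 0.33. The adjusted p of these 5 genes ran from 0.00776 to 0.0339 (limma), and the DAT arrays were above all controls for each.

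The rises included Lig1 and Neil3, which act in DNA repair. They were called in 2 and 1 of the 6 leave-outs of a single array, and Neil3 is not on the list counted below. Lig1, the ligase that joins lagging-strand fragments and completes excision repair, stood at 10.43, 10.34 and 10.42 after DAT against 10.06, 9.95 and 10.10, a rise of 0.36 ± 0.0686 (SE; adjusted p = 0.0142, limma). Neil3, a glycosylase that removes oxidised bases, rose by 0.39 (adjusted p = 0.0341, limma), but its other probe set gave -0.03. Of 25 DNA repair genes tested, 1 rose and 0 fell, or 2 rose with the block, Lig1 and the Fanconi anaemia gene Fancd2 (0.29, adjusted p = 0.0179 with the block and 0.155 without, limma). The median of the list was 0.08. Of all genes, 0.109% rose, or 1.35% with the block.

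Lyz2, the lysozyme of macrophages, also rose, from 7.03, 7.11 and 7.24 in the controls to 7.60, 7.49 and 7.61 after DAT (0.44 ± 0.0905, SE; adjusted p = 0.0292, limma). Of 10 macrophage markers, 4 were above the array median on all arrays of both groups, and the summed deposited intensity of all 10 ran from 606 to 641 after DAT and from 558 to 624 in the controls. The markers Ptprc, Itgam, Tyrobp and Fcer1g were at 4.20 to 23.8 in deposited intensity after DAT and 4.64 to 27.8 in the controls. These lay below the array medians of 41.2 to 43.6. The marker Adgre1 lay above them, at 44.7 to 61.6 after DAT and 48.3 to 58.5 in the controls, and differed by -0.09 without a call. Csf1r and Cd14 differed by -0.11 and -0.07 without a call. The part of other cells in the rise of Lyz2 was not tested.

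The 13 falls were small, at -0.30 to -0.66 on the log2 scale. Pmepa1, a membrane protein that restrains Smad signalling, stood at 8.28, 8.40 and 8.34 after DAT against 8.93, 8.98 and 8.86 in the controls, a fall of 0.58 on the log2 scale (adjusted p = 0.0318, limma). Its other probe sets gave -0.27 and -0.08. Skil, a Smad corepressor, stood at 8.56, 8.54 and 8.50 against 9.05, 8.97 and 9.10, a difference of -0.51 ± 0.0895 (SE; adjusted p = 0.00776, limma). Nrp2, a receptor for semaphorins and vascular growth factors, stood at 9.48, 9.27 and 9.35 against 10.07, 9.89 and 9.68, a difference of -0.51 (adjusted p = 0.00776), and its 3 other probe sets ran from -0.35 to -0.14. Slc39a10, a zinc importer, stood at 8.76, 8.73 and 8.67 against 9.24, 9.12 and 9.00, a difference of -0.40 ± 0.0629 (SE; adjusted p = 0.00256, limma). In each of these 4 genes every DAT array lay below every control, as it did for 6.33% of all genes tested.

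The remaining falls had adjusted p between 0.00776 and 0.0491 (limma). Dag1, the laminin receptor dystroglycan, stood at 10.85, 10.78 and 10.80 against 11.34, 11.36 and 11.02, a difference of -0.43. Ncam1, a cell adhesion molecule, differed by -0.48, and Notch2 and Fgfr2, receptors for cell-contact and fibroblast growth factor signals, by -0.37 and -0.35. Other probe sets of Notch2 (-0.04) and Fgfr2 (-0.11) gave smaller differences, the 5 others of Ncam1 ran from -0.24 to 0.06, and with the mean of its probe sets Ncam1 differed by -0.17. H1f2, of a family of closely similar linker histones, differed by -0.35, Gdpd5, a glycerophosphodiesterase, by -0.44, Tbc1d12 by -0.30 and Reep3, a shaper of the endoplasmic reticulum, by -0.30, with its other probe sets from -0.21 to -0.01. BC080696, a gene known here by a clone name, had the most negative difference of the 26, standing at 6.20, 6.09 and 6.09 after DAT against 6.72, 6.61 and 7.03, which is -0.66 (adjusted p = 0.00939). Of the 13 falls, Pmepa1 and Reep3 were called in 0 of the 6 leave-outs, with adjusted p up to 0.190 and 0.348 (limma).

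**Figure D3:**
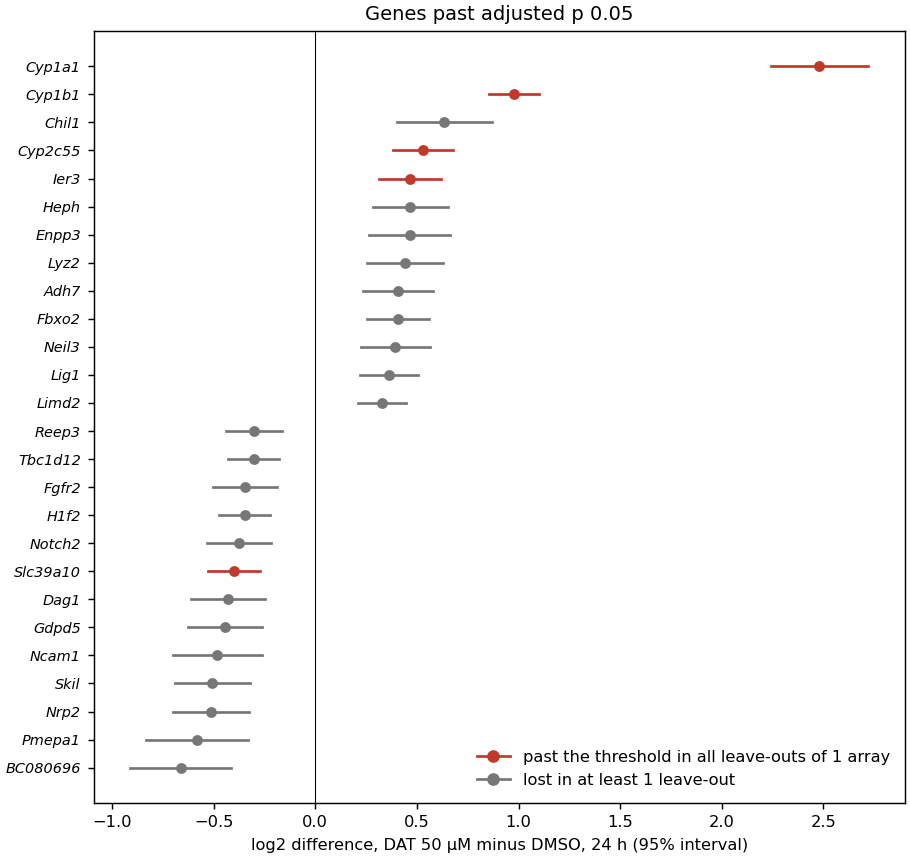
Log2 difference of each of the 26 called genes with its 95% interval; red marks the 5 genes that stayed past the threshold in all 6 leave-outs of a single array. Apart from Cyp1a1 and Cyp1b1, every difference lies between -0.66 and 0.63.

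Just outside the threshold, Kcnk2 (0.40, adjusted p = 0.0516), Dock1 (-0.28, 0.0522), Ddit3 (-0.23, 0.0544), Dhcr7 (-0.36, 0.0616) and Aff1 (-0.30, 0.0647) differed by sizes like those of the weaker calls. The smallest size called was 0.30. The other probe set of Dock1 gave 0.18, in the opposite direction, and those of Aff1 gave -0.08 each and that of Ddit3 -0.11.

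Lists of other cellular programmes gave few or no calls by limma at 24 h. Of all genes, 5.72% were higher and 4.75% lower at an unadjusted p under 0.05. With the block 1.25% were lower, and 49.3% had a difference above 0. For damage and stress, 0 of 25 p53 targets passed (1 higher and 2 lower at an unadjusted p under 0.05), with a median of 0.00046. Cdkn1a, the p53-induced cell cycle inhibitor, was the single gene called with the block and was lower, at -0.23 (adjusted p = 0.00834 with the block and 0.367 without, limma). Of 22 genes of Nrf2 and glutathione, 0 passed in either fit (5 higher unadjusted), while 19 had a difference above 0 and the median was 0.07. Osgin1, an oxidative stress gene, differed by 0.36 (adjusted p = 0.243). Of 24 genes of Atf4 and endoplasmic reticulum stress, 0 passed (3 lower unadjusted), and 1 was lower with the block, the stress transcription factor Ddit3. Of 11 heat shock genes, 0 passed in either fit (1 higher unadjusted).

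Proliferation genes gave no calls by limma. Of 28 DNA replication genes, 0 passed, and 1 was higher with the block, where 1.35% of all genes were. Of the 28, 5 were higher at an unadjusted p under 0.05, where 5.72% of all genes were, and 27 had a difference above 0, as did 49.3% of all genes. Their median was 0.16. The helicase subunit Mcm7 was the gene called with the block, at 0.25 (adjusted p = 0.0180, and 0.180 without it, limma). Of 25 mitosis genes, 0 passed in either fit, 5 were higher unadjusted and 24 had a difference above 0, with a median of 0.13. Cdk1, the mitotic kinase, differed by 0.17 (adjusted p = 0.412). These list medians stand beside a median of -0.0021 over all genes.

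Of the enzymes that oxidise, acetylate or otherwise conjugate amines, 23 were listed and 9 were bright enough to test, with 0 calls by limma and 2 higher at an unadjusted p under 0.05. Both passed with the block: Cyb5r3, the reductase that supplies electrons to hydroxylamine reduction, at 0.28 (adjusted p = 0.0101, and 0.193 without the block, limma) and the N-acetyltransferase Nat2 at 0.22 (adjusted p = 0.0462, and 0.214 without). The median of the 9 was -0.0032. Of all genes, 5.72% were higher at an unadjusted p under 0.05 and 1.35% were higher with the block.

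Sterol synthesis and interferon-stimulated genes had medians below 0, and a difference below 0 was found for 50.7% of all genes. Of all genes, 4.75% were lower unadjusted and 1.25% were lower with the block. Of 17 sterol synthesis genes, 16 had a difference below 0, 0 passed by limma, 8 were lower and 1 higher unadjusted, and 4 were lower with the block, with a median of -0.12. Sqle, which epoxidises squalene, differed by -0.22 (adjusted p = 0.0723, and 0.00571 with the block, limma), and Dhcr7, which makes cholesterol from its last precursor, by -0.36 (0.00778 with the block). Of 23 interferon-stimulated genes, 20 were below 0, 0 passed by limma, 6 were lower unadjusted and 4 lower with the block, with a median of -0.09. Cxcl10, an interferon-induced chemokine, stood at 10.63, 10.89 and 10.81 after DAT against 11.37, 11.45 and 10.97, a difference of -0.49 (adjusted p = 0.260, and 0.0306 with the block, limma).

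**Figure D4:**
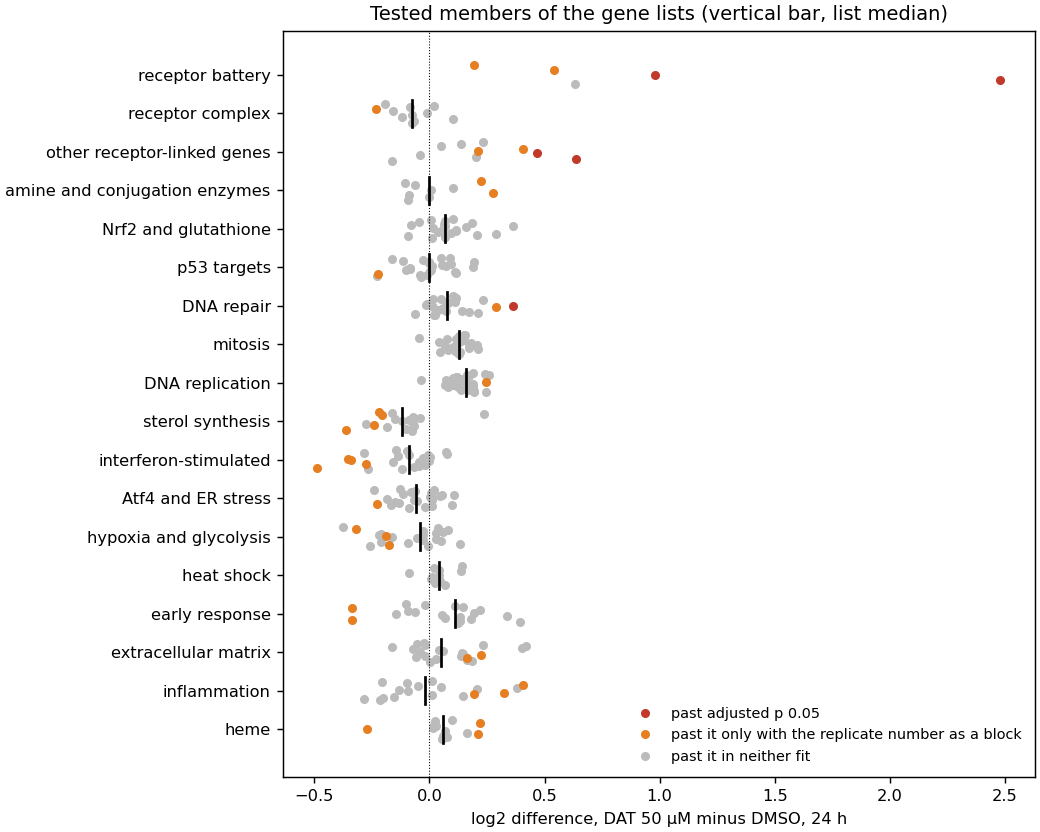
Log2 difference between DAT and DMSO at 24 h for every tested member of 18 gene lists, with a bar at each list's median; red members passed an adjusted p of 0.05, orange members passed only with the replicate number as a block. No bar is drawn for the receptor battery and the other receptor-linked genes, some of which were bright enough to test only through treated arrays; the bars of the DNA replication and sterol synthesis lists lie at 0.16 and -0.12.

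Against the other chemicals at 24 h, the mean of the DAT arrays was compared with that of each other group, without the shared controls. Every such difference also carries the difference in concentration. DAT at 50 µM left Cyp1a1 far below BaP at 0.5 µM, whose arrays stood at 10.75, 10.87 and 10.73, by -2.73 ± 0.116 (SE; adjusted p = 4.01e-15, limma). It lay below MCA at 2 µM, whose arrays stood at 10.68, 10.79 and 10.58, by -2.63 ± 0.116 (SE; adjusted p = 1.06e-14, limma). It lay above AAF at 25 µM, whose arrays stood at 6.45, 6.27 and 6.14, by 1.77 ± 0.116 (SE; adjusted p = 1.76e-10, limma). The order for Cyp1a1 was therefore AAF, DAT, then MCA and BaP, and the values of MCA and BaP overlapped. Cyp1b1 also lay between, with DAT above AAF by 0.37 (adjusted p = 0.00269), below BaP by -0.75 (adjusted p = 2.30e-09) and below MCA by -0.81 (adjusted p = 1.01e-09, limma).

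The battery genes were not spaced alike. Tiparp after DAT lay -1.21 ± 0.0531 (SE) from BaP (adjusted p = 4.97e-15) and -1.05 from MCA (adjusted p = 1.56e-13, limma), but only 0.19 from AAF, with a 95% interval of 0.08 to 0.30 (adjusted p = 0.0769, and 0.0191 with the block). Nqo1 lay -1.01 from BaP (adjusted p = 3.32e-06), -0.40 from MCA (adjusted p = 0.0916, and 0.00827 with the block) and 0.33 from AAF (adjusted p = 0.25, and 0.0424 with the block, limma). Aldh3a1 lay -1.48 from BaP (adjusted p = 1.02e-06) and -0.98 from MCA (adjusted p = 0.00135, limma). Its difference from AAF, 0.02 with an interval of -0.33 to 0.37, was not called. Ier3 after DAT lay -0.92 from BaP and -0.82 from MCA, and 0.10 from AAF (adjusted p = 0.695). Cyp2c55 did not follow this order: DAT was above MCA by 0.52 (adjusted p = 9.96e-05, limma), and its difference from BaP was -0.10 (adjusted p = 0.454).

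All 5 battery genes tested were lower after DAT than after BaP, where 3.86% of all genes were lower, and 4 of 5 were lower than after MCA, or 5 with the block, where 1.48% of all genes were lower, or 4.01% with it. Against AAF, 2 of 5 were higher, or 4 with the block, where 0.594% of all genes were higher, or 2.32% with it. Cyp1a1 and Aldh3a1 were bright enough to test only through treated arrays. These counts therefore describe the genes measured and are not independent evidence on the battery.

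**Figure D5:**
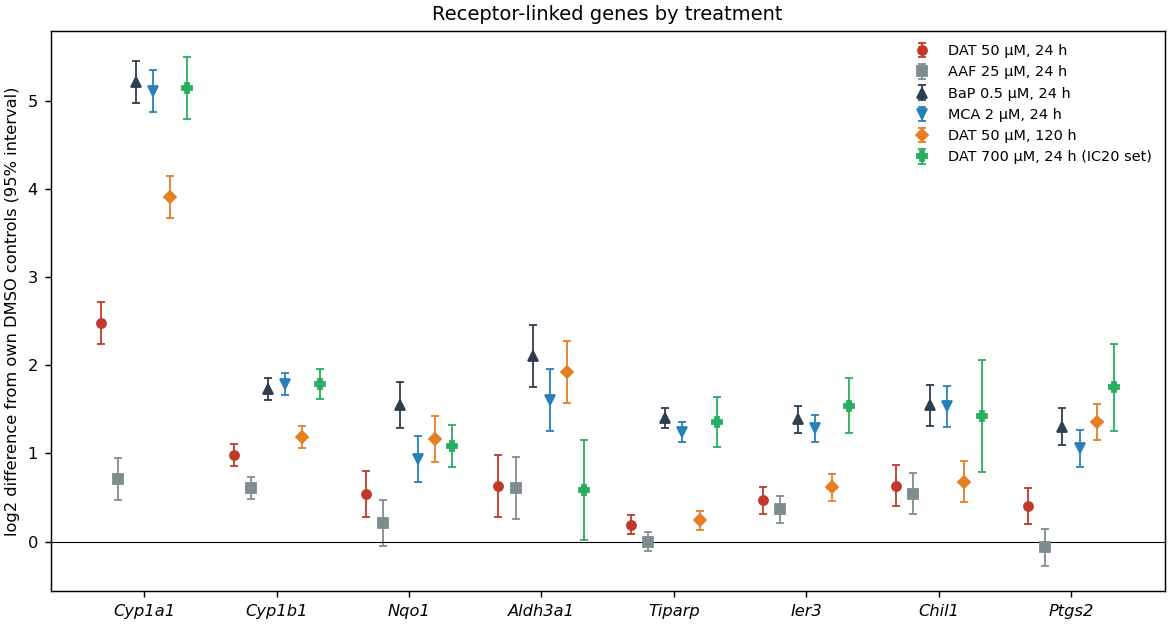
Log2 difference of 8 receptor-linked genes from the DMSO controls of the same time and set, with 95% intervals, for each treatment; the 24 h treatments share controls, and DAT at 700 µM comes from the separately scaled IC20 set. For Cyp1a1, DAT at 50 µM for 24 h reached 2.48, against 3.91 at 120 h and 5.15 at 700 µM.

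Across all genes, DAT and BaP differed in 1036 (8.66%), 575 higher (4.81%) and 461 lower after DAT, with 29 by 2-fold or more, and in 1940 (16.2%) with the block, 949 of them lower (7.94%). Leaving out 1 array gave 606 to 748 genes, the fewest without DAT replicate 3; it gave 650 without BaP replicate 1 and 678 without BaP replicate 2. Among the largest positive differences were the matrix proteins Postn (1.47) and Fmod (1.46) and the interferon-induced Ifit3 (1.27), Mx2 (1.18) and Dhx58 (1.15), each with an adjusted p of 1.02e-05 or less (limma). Against its own controls DAT gave -0.16 for Ifit3, -0.35 for Mx2 and 0.06 for Fmod, none of them called. Of 23 interferon-stimulated genes, 17 were higher after DAT than after BaP and 0 lower, with a median of 0.63 against 0.00059 over all genes. Of 22 genes of Nrf2 and glutathione, 8 were lower after DAT than after BaP and 0 higher, or 12 lower with the block, with a median of -0.16. Of 17 sterol synthesis genes, 9 were higher after DAT and 0 lower, with a median of 0.28. Against DMSO, the medians of the interferon, Nrf2 and sterol lists were -0.74, 0.30 and -0.42 after BaP. After DAT they were -0.09, 0.07 and -0.12.

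Between DAT and MCA, 336 genes differed (2.81%), 159 higher (1.33%) and 177 lower, with 3 by 2-fold or more, and 962 differed with the block (8.05%), 482 higher (4.03%). Leaving out 1 array gave 130 to 301 genes, with 130 without DAT replicate 3, 162 without DAT replicate 2, 216 without DAT replicate 1 and 181 without MCA replicate 3. The genes lower by 2-fold or more after DAT were Cyp1a1, Tiparp and Gpc1, a cell-surface heparan sulfate proteoglycan (-1.06, adjusted p = 8.49e-11, limma). Gpc1 differed from DMSO by 0.14 after DAT, 1.13 after BaP and 1.20 after MCA. Of 23 interferon-stimulated genes, 8 were higher after DAT than after MCA and 0 lower, or 14 with the block, with a median of 0.35 against 0.0061 over all genes. Against DMSO, the median of this list was -0.40 after MCA and -0.09 after DAT.

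Between DAT and AAF, the other amine, 135 genes differed (1.13%), 71 higher and 64 lower (0.535%), and Cyp1a1 was the only gene to differ by 2-fold or more. With the block, 495 differed (4.14%), 278 higher (2.32%) and 217 lower (1.81%). The counts against MCA and AAF have no fixed order, since a fit of only the groups compared gave 108 against MCA and 231 against AAF. Leaving out 1 array gave 15 to 126 genes, with 15 without AAF replicate 1, 24 without AAF replicate 3, and 16, 87 and 56 without DAT replicates 1, 2 and 3. Of 28 DNA replication genes, 7 were higher after DAT than after AAF and 0 lower, or 19 higher with the block, and all 28 had a difference above 0, with a median of 0.30 against -0.0029 over all genes. Against DMSO the same 28 had a median of 0.16 after DAT and -0.14 after AAF. The phosphatase Dusp1 was higher after DAT by 0.58 (adjusted p = 0.00337) and Ptgs2 by 0.47 (adjusted p = 0.0174), while the matrix protein Ltbp2 was lower by -0.59 (adjusted p = 4.59e-05, limma). Of 22 extracellular matrix genes, 1 was lower after DAT than after AAF, or 6 with the block, with 20 below 0 and a median of -0.16.

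At 120 h the response to the same 50 µM was broader, and it was measured against its own controls on other arrays. Against them 2978 genes differed (24.9%), 107 by 2-fold or more. Of the 13 genes that rose at 24 h, 8 were called higher at 120 h, where 12.3% of all genes were higher, and of the 13 that fell, 8 were called lower, where 12.7% were. None of the 26 was called the opposite way at 120 h. Cyp1a1 stood at 8.72, 8.95 and 8.85 after DAT for 120 h against 4.85, 4.97 and 4.97 in those controls, a difference of 3.91. The change in its response between the times, 1.43 ± 0.164 (SE), passed (adjusted p = 2.33e-06, limma). The controls of both times were below the array median, so this size rests in part on values under the floor; against the floor the rise at 120 h was at least 7.70-fold.

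The rise of Cyp1b1 was 1.19 at 120 h and 0.98 at 24 h, and the change of 0.21, with a 95% interval of 0.03 to 0.38, was not called (adjusted p = 0.148, limma). Tiparp gave 0.24 at 120 h and 0.19 at 24 h (change 0.05, interval -0.11 to 0.20, adjusted p = 0.796, limma). Aldh3a1, with controls below the array median at both times, went from 0.63 to 1.92 (change 1.29, adjusted p = 0.000711, limma) and Nqo1 from 0.54 to 1.16 (change 0.62, adjusted p = 0.0267, limma). Of the 5 battery genes, 3 had a larger response at 120 h, where 5.22% of all genes had a higher one. Cyp1a1 and Aldh3a1, both among these 3, were bright enough to test only through treated arrays. This count therefore describes the genes measured and is not independent evidence.

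In total 1043 genes had a different DAT response at the 2 times (8.72%), 624 higher and 419 lower (3.50%) at 120 h, 82 of them by 2-fold or more. All 25 mitosis genes tested and 18 of the 28 DNA replication genes had a higher response at 120 h, with medians of the change of 0.81 and 0.63 against -0.0166 over all genes. Of 23 interferon-stimulated genes, 18 had a higher response and 0 a lower. Mmp3, a secreted matrix protease, differed by 0.38 at 24 h (adjusted p = 0.775) and by 3.79 at 120 h (adjusted p = 2.22e-09, limma), and its change was 3.41 ± 0.467 (SE; adjusted p = 2.19e-05, limma). Acta2, smooth muscle actin, differed by 0.01 at 24 h and by -0.98 at 120 h.

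At 700 µM for 24 h, against the E2 controls and in a fit of that set alone, 1046 of 11384 genes differed (9.19%) and 109 of them by 2-fold or more. The scaling of that set differs, so its values stand beside those of 50 µM without a test. Cyp1a1 rose by 5.15 there against 2.48 at 50 µM, Cyp1b1 by 1.79 against 0.98, and Ier3 by 1.54 against 0.47. Tiparp rose by 1.36 at 700 µM (adjusted p = 2.48e-07, limma) against a difference of 0.19 at 50 µM. Of the 13 genes that rose at 50 µM, 4 were called higher, where 4.87% of all genes were higher, and of the 13 that fell, 6 were called lower, where 4.32% were. None was called the opposite way.

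The arrays were alike in quality. Within the 2 groups the correlation of normalised values between arrays ran from 0.988 to 0.996, and array medians of deposited intensity from 41.2 to 43.6. The actin probe sets gave a log2 ratio of 3′ over 5′ signal of 0.238 to 0.263 after DAT and 0.260 to 0.335 in the controls. All 10 fibroblast markers were above the array median on every array of both groups, with summed intensities of 42496 to 44538 after DAT and 40992 to 43154 in the controls. Epithelial markers were above it for 2 of 9, endothelial for 1 of 8, smooth muscle for 3 of 9 and adipocyte markers for 0 of 5 after DAT and 1 of 5 in the controls, with adipocyte sums of 80.4 to 116 and 85.0 to 110.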

How the data were processed

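Total RNA of Balb/c 3T3 cells was labelled with biotin and hybridised to Affymetrix arrays of 45101 probe sets, per the labels' protocols. The deposited values are intensities, 1 per probe set and array on a linear scale; the submitters' processing notes name the software GCOS, while background correction, scaling and genome build are not given in the sources used here. Arrays of the literature and IC20 sets were scaled differently (array medians 41.2 to 47.1 and 56.3 to 98.9), so each was analysed alone. Intensities were taken as log2(value + 16) and quantile normalised within the 30 arrays of the literature set. A gene was represented by the probe set with the highest mean, from 34958 probe sets with a single symbol (932 with several and 9211 unlisted were left out; 204 kept a symbol that the current gene table lacks), and was tested if above the array median on at least 3 arrays.

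limma 3.58.1 (R 4.3.3) fitted 10 group means with 20 residual degrees of freedom (lmFit, eBayes with trend), with two-sided p-values adjusted over 11957 genes by Benjamini-Hochberg at a threshold of 0.05; the scripts were tested on simulated data. Fold changes are on the log2(value + 16) scale, which understates changes of dim genes, and the number of arrays limits the precision. Same-numbered DAT and control arrays of 24 h deviated together (correlations 0.584, 0.707 and 0.146). Those of DAT with BaP, MCA and AAF did so above 0.1 in every pair. Differently numbered arrays reached 0.143 for DAT with the controls, and 0.214 for DAT with BaP, where replicate 3 gave 0.21. The pairing of replicate 3 is therefore not clearly shown. A fit with the replicate number as a block (16 residual degrees of freedom) is given beside results it changes. At 120 h the correlations of DAT with its controls were -0.0854, -0.330 and 0.541, so there the numbers were not taken to pair the arrays.

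Named genes were every battery gene, up to 20 rises and 15 falls past the threshold with groups that do not overlap, the 5 genes next to the threshold, up to 3 members of each other list with the smallest p, and up to 8 differences each way in the other comparisons; Ahr, Arnt, Hsp90aa1, Nfe2l2 and Cxcl5 lie outside that rule and were chosen after their values were seen. The macrophage markers Adgre1, Ptprc, Itgam, Tyrobp and Fcer1g also lie outside the rule. The members and the 24 gene lists were chosen with earlier results of these data known. Alternatives changed the normalisation, pseudocount, filter, probe set rule, arrays sharing the spread and replicate block, and left out each array in turn.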

Additional observations from a re-analysis of the deposited data

Results flagged for a closer look

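The response to 50 µM DAT differed between 120 h and 24 h in 1043 genes by the test of the difference between the 2 responses (limma, adjusted p under 0.05). Among genes of the receptor battery the change was 1.43 for Cyp1a1, 1.29 for Aldh3a1 and 0.62 for Nqo1 on the log2 scale. The genes with the largest gain at 120 h were Mmp3 (3.41), a matrix protease, Cdh19 (2.41), a cadherin, Sema5a (2.37), a semaphorin, Gch1 (2.11), the first enzyme of tetrahydrobiopterin synthesis, Anxa8 (2.02), an annexin, Fosl1 (2.00), a subunit of AP-1, Dynap (1.95) and Adam8 (1.88), a membrane protease. None of these 8 was called against its controls at 24 h.

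Genes of contractile and matrix proteins were among those whose response was lower at 120 h: Actg2 (-1.90), Myl9 (-1.21) and Acta2 (-0.99) of the contractile apparatus, Postn (-1.19) and Sparcl1 (-0.98) of the matrix, with H3f3b (-1.66), a histone, Angptl4 (-1.31), a regulator of lipoprotein lipase, and Id4 (-0.92), a transcriptional inhibitor. At 24 h these genes differed from DMSO by between -0.26 for H3f3b and 0.42 for Postn without a call.

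In data outside the genes named here, 2 probe sets without a single gene symbol passed in the fit of 25312 probe sets, of which 17 passed: 1427298_at, assigned to several genes, at -0.38 (adjusted p = 0.0202), and 1431764_at, unlisted, at -0.71 (adjusted p = 0.0368, limma). On both, the 3 DAT arrays lay below the 3 controls.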

How the results depend on the processing

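Over the named genes and every alternative run, 2841 values stayed on the same side of the threshold, 297 lost it and 75 gained it. Of the values past it in the main fit or the alternative, 0 changed direction. For values past it in neither, direction was not compared. Cyp1a1 and Cyp1b1 were the only 2 genes called against DMSO under every setting run. The counts of genes past the threshold moved more, given here in the order DAT against DMSO, BaP, MCA and AAF and the change between times (26, 1036, 336, 135 and 1043). Without normalisation they were 9, 478, 98, 6 and 446, with 66.7%, 66.7%, 57.1%, 66.7% and 70% of them higher, where the main shares were 50%, 55.5%, 47.3%, 52.6% and 59.8%. With the replicate block they were 311, 1940, 962, 495 and 1941, the last for numbers that did not pair the 120 h arrays. With all 60 arrays sharing a spread they were 3, 341, 52, 7 and 329, and with only the groups compared 4, 1680, 108, 231 and 685. Using the mean of a gene's probe sets gave 16 against DMSO. In the 15 arrays of 24 h with the replicate block, an alternative added after seeing the data, the first 4 were 255, 1909, 715 and 513. Leaving out 1 array gave 5 to 28, 606 to 748, 130 to 301, 15 to 126 and 773 to 1094. The cause of these moves was not tested. Pseudocount and filter changed no count by over 1.5 times. Genes above the array median on fewer than 3 arrays, among them Cyp1a2 and Ahrr, were not tested, and fold sizes of Cyp1a1, Aldh3a1 and Chil1 rest on controls below it.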

Other observations

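Small differences in lists without a call by limma were seen with the replicate block at 24 h. Of all genes, 1.35% were higher and 1.25% lower with the block, and 4.75% were lower at an unadjusted p under 0.05. Of 22 hypoxia and glycolysis genes, 3 were lower with the block and 5 lower at an unadjusted p under 0.05: the glucose transporter Slc2a1 (-0.32, adjusted p = 0.00311 with the block and 0.108 without, limma), P4ha1, a collagen prolyl hydroxylase subunit (-0.19, 0.0262 and 0.217), and the mitophagy receptor Bnip3 (-0.18, 0.0436 and 0.205). Of 13 heme genes, 2 were higher with the block, Slc48a1, a heme transporter (0.22, 0.0210 and 0.0966), and Blvrb, a biliverdin reductase (0.21, 0.0438 and 0.315), and 1 lower, the heme exporter Flvcr1 (-0.27, 0.0281 and 0.228).

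Of 22 extracellular matrix genes, 2 were higher with the block, the collagen chains Col3a1 (0.16, adjusted p = 0.0139 with the block and 0.162 without, limma) and Col6a2 (0.22, 0.0140 and 0.214). Of 19 early response genes, 2 were lower with the block, the transcription factors Klf4 (-0.33, 0.00571 and 0.302) and Egr1 (-0.34, 0.0167 and 0.364). On the arrays, Egr1 stood at 10.35, 10.39 and 10.41 after DAT against 10.47, 10.61 and 11.07, so its control 3 stood apart from the others. Of 18 inflammation genes, 3 were higher with the block, Ptgs2 and the chemokines Cxcl5 (0.32, 0.0142 and 0.320) and Cxcl12 (0.20, 0.0319 and 0.253). The medians of these 5 lists ran from -0.04 to 0.11, beside -0.0021 over all genes.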
